A study of Sus scrofa with 6 samples.

Results

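DPPA2, DPPA3 and DPPA4 are developmental pluripotency associated genes, known for high transcript levels in the early embryo and in germ cells. They were taken from the expression table of a pig embryo series by gene symbol, which gave 3 rows of the 30376 genes in the table, 1 for each symbol. The series measured poly(A) RNA of pig embryos at the 4-cell stage, the stage at which the pig embryo begins most of its own transcription, and asks how high temperature affects that activation of the embryonic genome. Embryos cultured at 41.5 °C (high temperature, 3 libraries) were compared with embryos cultured at 38.5 °C (control, 3 libraries), both for 4 days.

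All embryos of both groups came from oocytes activated with direct-current pulses of 120 V and were kept in PZM-5 medium with bovine serum albumin under 5% CO2. The labels name no fertilization, so whatever a sperm would bring is not represented in either group. In the genotype field the labels write HT for the high-temperature embryos and WT for the controls, and HT is also their name for the heated group, so no allele is given. About 300 embryos at this stage went into the libraries, and the labels do not say whether that number is per library or whether the replicates were separate cultures. The p-values therefore refer to variation among these 6 libraries, part or all of which may be technical.

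The DPPA proteins have different known roles. DPPA2 and DPPA4 are related proteins with a SAP domain, which binds DNA, and act together on chromatin. In mouse embryonic stem cells the pair keeps developmental promoters open to activation and switches on Dux, a homeobox gene that turns on transcripts of the cleavage stage. DPPA3, also named STELLA or PGC7, is a maternal protein that in mouse protects the egg's genome from loss of DNA methylation after fertilization, and in mouse oocytes keeps UHRF1, the partner of the maintenance DNA methyltransferase, out of the nucleus.

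DPPA2 (Entrez gene 100620381, Sscrofa11.1 chromosome 13, 150186833 to 150200612) and DPPA4 (Entrez gene 100620290, chromosome 13, 150165485 to 150176712) lie side by side on the plus strand, 10120 bases apart. DPPA3 (Entrez gene 100511328, chromosome 5, 62861492 to 62868131) lies in the gene cluster that also holds GDF3 and NANOG. The span of none of the 3 genes overlaps another counted gene in the annotation. DPPA3 has a neighbour 3386 bases away, LOC100511133 (chromosome 5, 62850277 to 62858105), which the authors' deposited table describes as a DPPA3-like protein, and reads of such a pair may have been counted for either gene.

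Total counts lay between 28114005 and 28892695 reads in high-temperature libraries and between 28869484 and 30079385 in controls, and 16056 genes had enough reads to be tested. Oocyte markers were present in every library, with the summed level of the 26 listed oocyte genes found in the table at 5104 to 8672 CPM (counts scaled to a common library size, with TMM scaling, the trimmed mean of M-values) in high-temperature libraries and 5096 to 8627 CPM in controls. The 20 rows of cumulus and granulosa cell markers summed to 95.02 to 117.8 CPM at high temperature and 97.0 to 139 CPM in controls, most of it KITLG, and 6 rows, among them AMH, FSHR, FOXL2, NR5A1 and CYP11A1, had no read in any library. Stromal and blood markers summed to 11.7 to 14.7 CPM at high temperature and 12.4 to 14.8 CPM in controls. The 13 mitochondrially encoded messages took 23.8% to 26.7% of the counts at high temperature and 21.0% to 23.6% in controls. Control replicate 1 stood apart in its TMM factor, 0.865 against 0.9996 and 1.04 in the other controls and 1.005 to 1.09 in the heated libraries. It also gave the highest CPM value of DPPA2, DPPA3 and DPPA4, so the comparison of each is given with and without it.

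The DPPA transcripts differed widely in abundance at either temperature. On the per-length scale of TPM (transcript abundance scaled by gene length and to a fixed library total), DPPA3 averaged 1552 ± 139 TPM at high temperature and 1960 ± 315 TPM in controls (SD, n = 3 each). DPPA2 averaged 212 ± 91.8 TPM at high temperature and 295 ± 148 TPM in controls, and DPPA4 averaged 5.15 ± 1.10 TPM at high temperature and 7.15 ± 1.35 TPM in controls. The order DPPA3 over DPPA2 over DPPA4 held in all 6 libraries, with no overlap between the genes.

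By rank of TPM within a library, DPPA3 stood between place 49 and place 63 of the 30376 genes at high temperature and between 41 and 55 in controls. DPPA2 stood between 332 and 786 at high temperature and between 218 and 567 in controls. DPPA4 stood between 5415 and 6705 at high temperature and between 4382 and 5490 in controls, in the middle range of the genes tested.

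The chromosome 13 neighbours, whose proteins act as a pair, were thus present at unequal transcript levels. The ratio of DPPA2 to DPPA4, both in TPM, was 57.9, 37.4 and 26.6 in the high-temperature libraries, a mean of 40.6 ± 15.9 (SD, n = 3). In controls it was 52.3, 42.5 and 25.2, a mean of 40.0 ± 13.7. The ratios of the groups overlapped over nearly their whole range, and the spread within each group was far larger than the difference between the means.

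DPPA2 varied more between libraries of the same temperature than between temperatures. Its counts were 10444, 8359 and 3772 reads in high-temperature replicates 1, 2 and 3, and 17291, 9380 and 5716 reads in control replicates 1, 2 and 3. As CPM these were 357, 290.4 and 123 at high temperature and 665, 323 and 189.8 in controls. In each group replicate 1 was the highest and replicate 3 the lowest, and 2 of the 3 heated libraries lay inside the range of the controls.

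The spread of DPPA2 within a group was wider than counting error. The exact 95% Poisson interval, which covers counting error only, was 351 to 364 CPM for high-temperature replicate 1 and 119 to 127 CPM for high-temperature replicate 3. Its within-group SD on the log2 CPM scale was 0.86, above that of 96.9% of the 839 tested genes whose mean level lay within 2-fold of it. DPPA3 (0.31) and DPPA4 (0.40) were near the middle of the genes at their levels, above 56.5% of 92 genes and 56.6% of 3629 genes.

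**Figure D1:**
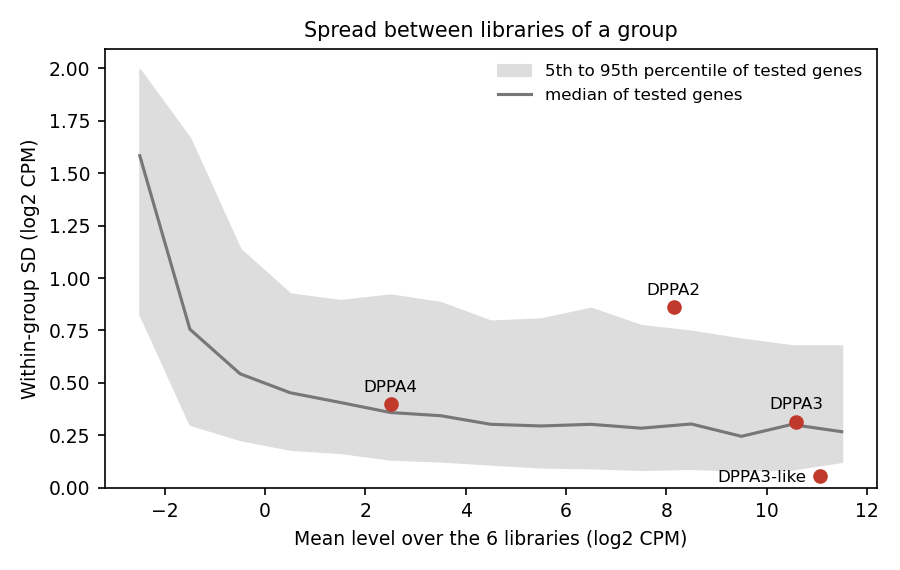
Within-group SD of log2 CPM (vertical axis) against the mean log2 CPM over the 6 libraries (horizontal axis); the line is the median and the band the 5th to 95th percentile of the tested genes in bins of 1 log2 unit that hold at least 20 genes. DPPA2, at 0.86, lies above the band, DPPA3 and DPPA4 lie near the median, and the DPPA3-like gene, at 0.057, lies below the band.

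For DPPA2 the comparison of temperatures gave a mean of 257 ± 121 CPM at high temperature and 393 ± 245 CPM in controls (SD, n = 3 each). The log2 fold change, high temperature over control, was -0.61 (standard error 0.51, 95% interval -1.8 to 0.57), and it did not pass the edgeR quasi-likelihood test (unadjusted p = 0.266, Benjamini-Hochberg adjusted p = 0.99992). The interval reaches from a level 3.46-fold lower to one 1.48-fold higher at high temperature, so this fit does not tell differences within that range apart. Without control replicate 1 the log2 fold change was 0.0017, without high-temperature replicate 3 it was -0.24, without high-temperature replicate 1 it was -0.93 and without control replicate 3 it was -0.95. In this fit on group alone the sign and size of the DPPA2 difference thus depend on single libraries. At each replicate number the heated library was lower in CPM than the control. With the replicate number as a block, a pairing the labels do not state, the log2 fold change was -0.56 (95% interval -0.89 to -0.23, edgeR adjusted p = 0.382).

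DPPA4, the other gene of the pair, was counted far less deeply. It had 137, 169 and 108 reads in high-temperature replicates 1, 2 and 3, and 251, 167 and 172 reads in control replicates 1, 2 and 3. These were 4.69, 5.87 and 3.53 CPM at high temperature and 9.66, 5.76 and 5.71 CPM in controls. The highest heated library lay just above the 2 lower controls, and control replicate 1 lay above every other library.

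At this depth counting error is a visible part of the DPPA4 values. The 95% Poisson interval was 5.02 to 6.83 CPM for high-temperature replicate 2, which holds the values of control replicates 2 and 3. For control replicate 1 it was 8.50 to 10.9 CPM, which holds no other library's value. DPPA4 averaged 4.70 ± 1.17 CPM at high temperature and 7.04 ± 2.26 CPM in controls, a log2 fold change of -0.58 (standard error 0.31, 95% interval -1.3 to 0.14; edgeR unadjusted p = 0.101, adjusted p = 0.99992). Leaving out control replicate 1 gave -0.29, and leaving out high-temperature replicate 3 gave -0.38.

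DPPA3, a maternal factor in mouse and the most abundant of the DPPA members, was the least variable between libraries. It had 39277, 43813 and 35962 reads in high-temperature replicates 1, 2 and 3, and 62979, 49436 and 42025 reads in control replicates 1, 2 and 3. These were 1344, 1522 and 1176 CPM at high temperature and 2423, 1704 and 1395 CPM in controls. Only control replicate 3 lay within the range of the heated libraries, and the other controls lay above all of them.

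DPPA3 averaged 1347 ± 173 CPM at high temperature and 1841 ± 527 CPM in controls, a log2 fold change of -0.45 (standard error 0.24, 95% interval -1.0 to 0.10; edgeR unadjusted p = 0.0973, adjusted p = 0.99992). The difference between the means was smaller than the SD of the controls. Without control replicate 1 the log2 fold change was -0.20.

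**Figure D2:**
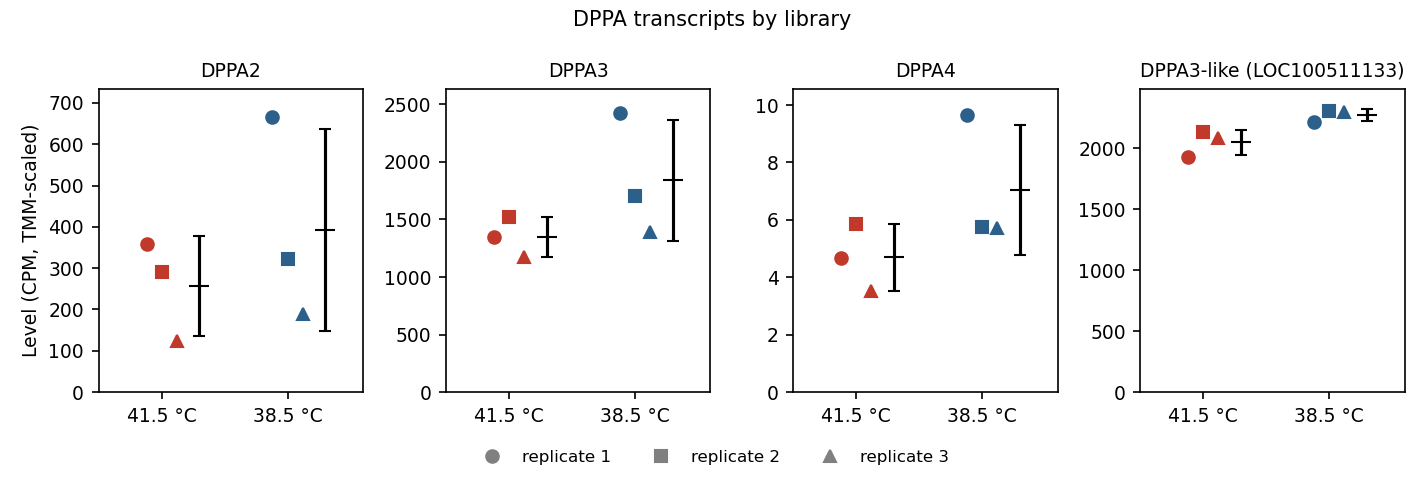
Level in CPM (vertical axes, from 0, each gene with its own scale) of DPPA2, DPPA3, DPPA4 and the DPPA3-like gene in the 3 libraries at 41.5 °C (red) and the 3 at 38.5 °C (blue); marker shapes give the replicate number and black bars the mean ± SD. The groups overlap for DPPA2, DPPA3 and DPPA4, and control replicate 1 is the highest library for these 3. The DPPA3-like gene has the narrowest spread relative to its mean CPM.

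None of the 3 DPPA genes was called, and the test called 0% of the 16056 genes, so the absence of a call does not set them apart. At an unadjusted p below 0.05 edgeR found 297 genes (1.85%), again with 0 of the 3 members among them. DESeq2 called 5 of 24749 genes (0.0202%) and 390 at an unadjusted p below 0.05 (1.58%), with 0 of the 3 DPPA genes in either count. The groups did not overlap for 7.71% of the tested genes and for 0 of the 3 members. All 3 members had a log2 fold change below 0, as did 52.5% of the tested genes, and their median was -0.58 against -0.02 over all tested genes. The RNA was pooled from whole embryos, so fewer embryos or cells with a transcript and less transcript per cell cannot be told apart.

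**Figure D3:**
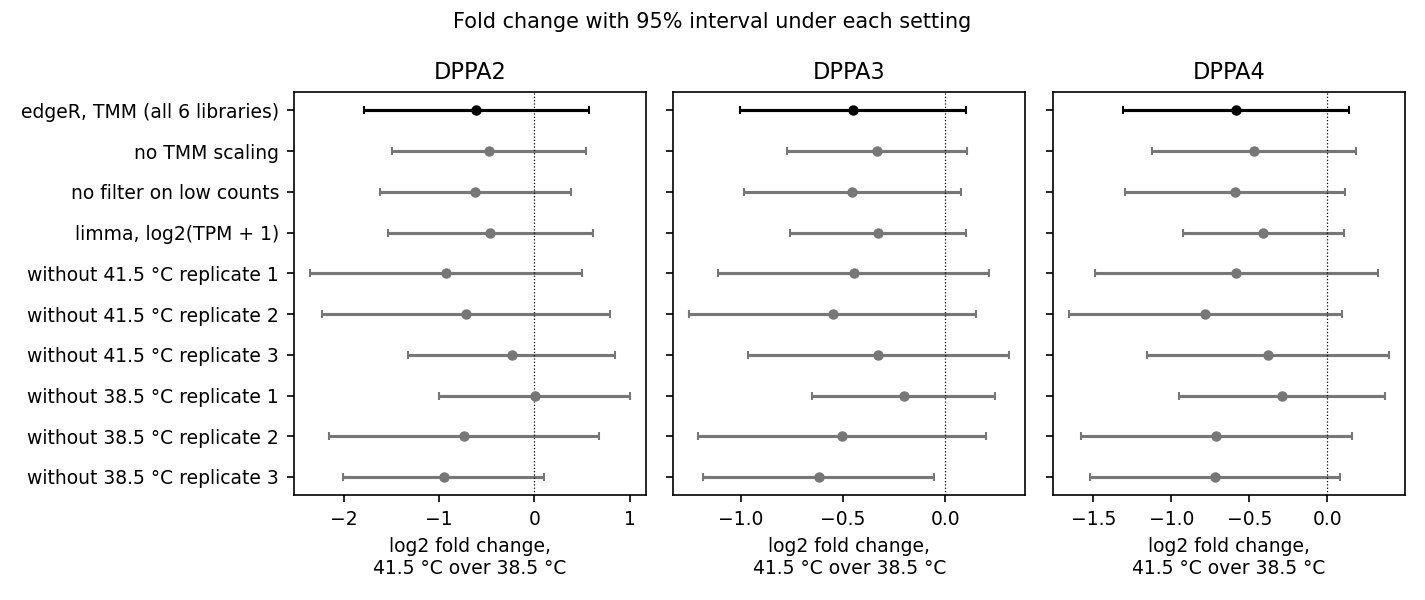
Log2 fold change, 41.5 °C over 38.5 °C (horizontal axes), of DPPA2, DPPA3 and DPPA4 with its 95% interval, from all 6 libraries (black) and, in grey, without TMM scaling, without the filter on low counts, with limma on log2(TPM + 1) and without each library. The fit with the replicate number as a block is not drawn. The interval holds 0 in every row shown except DPPA3 without 38.5 °C replicate 3, and the DPPA2 point reaches 0.0017 without 38.5 °C replicate 1.

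The DPPA3-like neighbour was of similar abundance to DPPA3. On the log2 CPM scale its within-group SD was 0.057, against 0.31 for DPPA3, while in TPM the SDs of both genes were similar. LOC100511133 was at 1647, 1846 and 1971 TPM in high-temperature replicates 1, 2 and 3, and at 1604, 2036 and 2092 TPM in control replicates 1, 2 and 3. Its mean of 1821 ± 163 TPM at high temperature and 1911 ± 267 TPM in controls stands beside 1552 ± 139 TPM at high temperature and 1960 ± 315 TPM in controls for DPPA3, and the TPM ranges of the genes overlapped in both groups. The ratio of DPPA3 to LOC100511133, both in TPM, was 0.909, 0.926 and 0.735 at high temperature and 1.43, 0.950 and 0.792 in controls. Control replicate 1 was the single library in which DPPA3 exceeded its neighbour.

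As CPM LOC100511133 was at 1933, 2132 and 2088 at high temperature and at 2217, 2309 and 2303 in controls. These groups did not overlap in CPM, as for 7.71% of tested genes, but they did overlap in TPM. The log2 fold change was -0.15 (standard error 0.16, 95% interval -0.51 to 0.21; edgeR adjusted p = 0.99992).

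Summing DPPA3 with its neighbour gives the same value whichever gene of the pair a shared read was given to. It does not recover reads that were dropped or given elsewhere, and how far the pair shares reads was not tested. The sum, a comparison added after the data were seen, was at 3278, 3654 and 3264 CPM at high temperature and at 4640, 4013 and 3698 CPM in controls, without overlap, as for 7.71% of single tested genes. It averaged 3399 ± 222 CPM at high temperature and 4117 ± 479 CPM in controls. For the sum the log2 fold change was -0.28 (standard error 0.17, 95% interval -0.67 to 0.12; edgeR adjusted p = 0.99992), smaller in size than that of DPPA3 alone. Without control replicate 1 it was -0.18.

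The other genes near the DPPA loci were tested within 100 kb of each member. Next to DPPA4 the long noncoding RNA LOC110256428 was at 8.30 ± 1.18 CPM at high temperature and 9.52 ± 3.50 CPM in controls (SD, n = 3 each). Near DPPA3, the homeobox gene NANOG, a pluripotency factor, was at 72.9, 58.2 and 56.6 CPM at high temperature and at 104.2, 89.8 and 78.4 CPM in controls. The NANOG groups did not overlap, as for 7.71% of all tested genes. The log2 fold change of NANOG was -0.54 (standard error 0.21, edgeR unadjusted p = 0.0307, adjusted p = 0.99992). An edgeR unadjusted p below 0.05 was found for 1.85% of all tested genes.

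A further row with the symbol NANOG, on chromosome 1, was at 12.7, 11.7 and 8.83 CPM at high temperature and at 17.8, 15.2 and 11.2 CPM in controls, with overlap, and reads of such copies may be shared. NANOGNB, the homeobox gene between DPPA3 and NANOG, also varied widely within groups, at 76.6, 48.9 and 34.6 CPM at high temperature and 122.5, 57.8 and 46.0 CPM in controls, with overlap. GDF3, a TGF-beta family growth factor on the other side of DPPA3, was at 6.83 ± 1.86 CPM at high temperature and 6.24 ± 0.829 CPM in controls. The log2 fold change was -0.50 (standard error 0.42) for NANOGNB and 0.13 (0.27) for GDF3, and neither passed the test (edgeR adjusted p = 0.99992 for each). APOBEC1 (0.23) and SLC2A3 (-0.21) were at 5.97 CPM or less in either group, and pseudogenes LOC100512605 and LOC106507524 had too few reads to be tested. Neighbours of DPPA3 on chromosome 5 thus gave values on both sides of 0.

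DPPA5, a further gene named for the same property but coding for an RNA-binding protein of the KH type, is no neighbour (chromosome 1, 52986462 to 52987596). It was at 699, 723 and 547 CPM at high temperature and at 1073, 1044 and 768 CPM in controls. Its groups did not overlap, as for 7.71% of all tested genes. The log2 fold change of DPPA5 was -0.55 (standard error 0.21, edgeR unadjusted p = 0.0310, adjusted p = 0.99992), where 1.85% of all tested genes had an unadjusted p below 0.05.

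The transcripts whose profile over the 6 libraries was most like that of each member were sought among genes with a mean of at least 10 CPM, by the root mean square difference of log2 CPM after centring each gene. For DPPA2 the 5 nearest of 6295 genes differed by 0.050 to 0.10 log2 units, against a median of 0.77 over all of them. They were LOC110255265 (described as similar to zinc finger protein 684), DDX47 (an RNA helicase of ribosome assembly), NDUFA11 (a complex I subunit), TMA16 and CNIH1. For DPPA3 they were LSM8 (a core protein of the spliceosomal U6 particle), SRP9 (of the signal recognition particle), CYCS (cytochrome c), ZNF277 and TRIM59, at 0.025 to 0.052 log2 units against a median of 0.40.

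For DPPA4 the 5 nearest of 6296 genes were NOP10 (a protein of the box H/ACA particles that modify RNA), COMMD2, TERB2, DNAJC24 and ACTR6, at 0.11 to 0.14 log2 units against a median of 0.47. DPPA3 was the gene ranked 15th in likeness to DPPA4, with a difference of 0.15 log2 units, while DPPA2, the chromosomal neighbour, was ranked 2855th (0.45 log2 units). By this measure the profile of DPPA4 was thus nearer to that of DPPA3 than to that of DPPA2. The measure also counts the size of the variation, and the within-group SD was 0.86 for DPPA2, 0.40 for DPPA4 and 0.31 for DPPA3. For each of these genes control replicate 1 was the highest library in CPM and high-temperature replicate 3 the lowest. These likenesses describe 6 libraries that share depth and library preparation.

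Genes that work with DPPA3 showed no called difference, and the edgeR test called 0% of all 16056 tested genes. A count of 0 past the test, here and in the lists below, thus does not set a list apart. Of 20 listed partners, among them DNA methyltransferases, TET dioxygenases and nuclear transport factors, 19 were tested, with 10 higher, 9 lower and 0 past the test, and a median log2 fold change of 0.11 (-0.02 over all tested genes). DNMT1, which copies DNA methylation after replication, was at 8075 ± 1749 CPM at high temperature and 8535 ± 1621 CPM in controls. UHRF1, which DPPA3 holds out of the nucleus in mouse oocytes, was at 3.95 ± 1.73 CPM at high temperature and 2.999 ± 1.37 CPM in controls. TET3, the dioxygenase of the zygote, was at 15.7 ± 6.50 CPM at high temperature and 13.8 ± 7.99 CPM in controls.

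The related gene UHRF2 was far more abundant than UHRF1, at 558 TPM at high temperature and 570 TPM in controls against 1.32 TPM at high temperature and 0.961 TPM in controls for UHRF1. NPM1, a nucleolar histone chaperone, was at 1591 ± 204 CPM at high temperature and 1749 ± 302 CPM in controls. Among the partners the groups did not overlap for 1 gene, EHMT2, a histone H3 methyltransferase at 3.15, 2.95 and 4.28 CPM at high temperature and 0, 2.31 and 2.86 CPM in controls, and 7.71% of all tested genes did not overlap. Its log2 fold change of 0.996 had a standard error of 0.92.

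Regulators and chromatin partners of DPPA2 and DPPA4 were likewise without a call, as were all 16056 tested genes. Of 27 listed genes of the SUMO pathway, the histone H3 lysine methyltransferase complexes and Polycomb, 26 were tested, with 14 higher, 12 lower and 0 past the test, and a median log2 fold change of 0.07. SUMO2, the most abundant of them, was at 1052 ± 138 CPM at high temperature and 1078 ± 48.1 CPM in controls. DPY30, a core subunit of the methyltransferase complexes, was at 121 ± 46.9 CPM at high temperature and 127 ± 27.3 CPM in controls. PIAS4, a SUMO ligase that in mouse embryonic stem cells restrains DPPA2, was at 6.33, 6.88 and 7.98 CPM at high temperature and 2.73, 4.96 and 5.48 CPM in controls. The PIAS4 groups did not overlap, with a log2 fold change of 0.68 (standard error 0.31, edgeR unadjusted p = 0.0553, adjusted p = 0.99992). KMT2C, a histone methyltransferase, was the other gene of this list without overlap (log2 fold change 0.24), which makes 2 of 26, near the 7.71% of all tested genes.

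Cleavage-stage genes, which include the homeobox genes downstream of DPPA2 and DPPA4 in mouse or their relatives, had 2 higher, 10 lower and 0 past the test of 12 tested, with 15 of the 28 listed symbols in the table. Their median log2 fold change was -0.13. LEUTX, a homeobox gene of the cleavage embryo, was at 949 ± 306 CPM at high temperature and 1040 ± 188 CPM in controls. DUXA, of the double homeobox family to which Dux belongs, was at 138 ± 16.9 CPM at high temperature and 148 ± 14.3 CPM in controls. ARGFX was at 87.7 ± 31.8 CPM at high temperature and 115 ± 69.9 CPM in controls. These homeobox transcripts were thus well detected at either temperature. PNP, a purine salvage enzyme, was at 369 ± 63.0 CPM at high temperature and 400.4 ± 34.1 CPM in controls, and ZSCAN4 was near 0 at 0.046 CPM at high temperature and 0.11 CPM in controls.

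Candidate activators of the embryonic genome had 11 of 20 tested members higher, 9 lower and 0 past the test, with a median log2 fold change of 0.01. KLF4 was at 408 ± 200 CPM at high temperature and 433 ± 239.7 CPM in controls, and OTX2 at 199 ± 41.9 CPM at high temperature and 195 ± 54.3 CPM in controls. NFYB, a subunit of the CCAAT-binding factor, was at 208 ± 56.5 CPM at high temperature and 270.4 ± 106 CPM in controls. TEAD4, a partner of YAP1, was the 1 gene of 20 without overlap, against 7.71% of all tested genes, at 4.34 ± 1.32 CPM at high temperature and 2.44 ± 0.537 CPM in controls. Pluripotency genes had 8 of 14 tested rows higher, 6 lower and 0 past the test, with a median of 0.09. The groups did not overlap for 2 of the 14, both lower, against 7.71% of all tested genes. An edgeR unadjusted p below 0.05 was found for 2 of the 14, against 1.85% of all tested genes. In both counts the 2 rows were DPPA5 and the NANOG row of chromosome 5, whose values are given above. The list summed to 825 to 985 CPM at high temperature and 1073 to 1376 CPM in controls. DPPA5 made up most of that sum in every library. POU5F1 was at 42.6 ± 4.18 CPM at high temperature and 44.1 ± 14.9 CPM in controls.

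Oocyte transcripts, the maternal class to which DPPA3 belongs in mouse, had 14 of 25 tested members higher, 11 lower, 0 past the test and a median of 0.01. How much of the DPPA3 transcript in these embryos was maternal and how much newly made was not tested. BTG4, an adaptor of maternal mRNA decay, was at 3456 ± 1351 CPM at high temperature and 3766 ± 1076 CPM in controls. BMP15, an oocyte growth factor, was at 888 ± 81.2 CPM at high temperature and 838 ± 105 CPM in controls. H1FOO, the oocyte linker histone, was at 730.3 ± 239 CPM at high temperature and 634 ± 307 CPM in controls. The cumulus list had 3 of 10 tested members higher and a median of -0.17, and the stromal and blood list had 3 of 8 higher and a median of -0.08, both with 0 past the test. KITLG was at 77.6 ± 12.4 CPM at high temperature and 90.6 ± 20.1 CPM in controls, INHBA and FST were each at 8.81 CPM or less, and PECAM1, LYZ and DCN each at 5.20 CPM or less. The part of other cell types in the DPPA values was not tested.

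**Figure D4:**
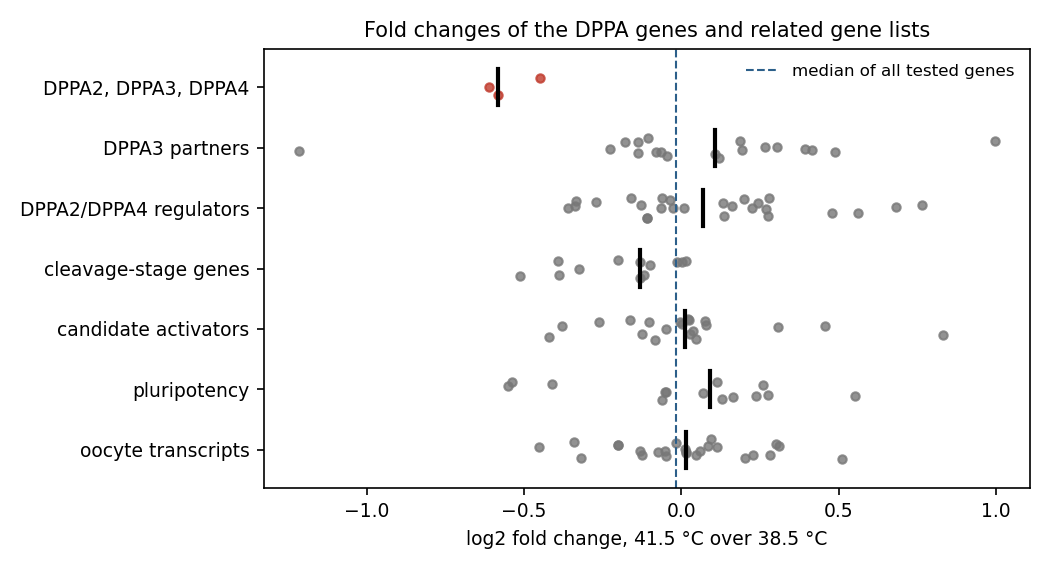
Log2 fold change, 41.5 °C over 38.5 °C (horizontal axis), of the DPPA genes (red) and of the tested genes of 6 related lists (grey), 1 point per gene with vertical scatter for legibility; black bars are medians and the dashed line is the median of all tested genes (-0.02). The DPPA genes lie between -0.61 and -0.45, and the list medians lie between -0.13 and 0.11.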

How the data were processed

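The deposited table holds raw read counts for each gene and library, per the file headers. It also holds the authors' FPKM values and TPM values, per the file headers. Tools named in the submitters' processing notes, without roles, are HISAT, HISAT2 2.1.0, StringTie 2.1.3b, Bowtie2 and Trimmomatic 0.38, with the build Sscrofa11.1. How reads of near-identical genes were counted is not stated there. Each column of the series table matched the FPKM of its sample's own table (at least 99.4% of genes equal within 1e-05, at most 27.9% in any other column). Positions came from RefSeq genes of Sscrofa11.1, matched on Entrez ID (30352 of 30376). The 24 rows with no symbol, mitochondrial tRNA and rRNA, held 0.527% to 0.658% of the counts and stayed in the fit.

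The test on counts was that of edgeR 4.0.16 under R 4.3.3 (quasi-likelihood, TMM, filterByExpr, group as the single term) over all genes, with Benjamini-Hochberg adjustment at 0.05, after a trial on simulated data. Alternatives were DESeq2 1.42.0, no scaling, no filter, limma 3.58.1 on log2(FPKM + 1), log2(TPM + 1) and log2(TPM + 0.1), the replicate number as a block and leaving out each library. Log2 CPM used a prior count of 2. The members and lists were chosen with earlier results of these data known. Named genes were the members, genes within 100 kb, the 5 nearest profiles of each, and the most abundant or non-overlapping genes of each list, with UHRF1, TET3, ARGFX and ZSCAN4 added after their values were seen. Some genes that this rule names are not reported here.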

Additional observations from a re-analysis of the deposited data

How the results depend on the processing

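None of the DPPA genes was called under any of 13 other settings each. DPPA3 and DPPA4 kept their direction in all 13, at log2 fold changes of -0.62 to -0.20 and -0.78 to -0.29. DPPA2 kept it in 12, with single libraries left out giving -0.95 to 0.0017, and the positive value came from leaving out control replicate 1. Without TMM scaling the log2 fold changes were -0.48 for DPPA2, -0.33 for DPPA3 and -0.47 for DPPA4, each smaller in size than with it. The median over all tested genes was then higher by 0.094. The number of genes called was 0, and it was 5 with DESeq2, 3 with a replicate block and 1 with genes of low counts kept. Single libraries left out gave 0 calls each. The labels do not state that replicate numbers pair the libraries. Same-numbered libraries correlated in their deviations from the group means at 0.52, 0.0080 and 0.59 for numbers 1, 2 and 3. High-temperature replicate 1 correlated with control replicate 3 at -0.52, and high-temperature replicate 3 with control replicate 1 at -0.57. High-temperature replicate 2 correlated best with control replicate 1 (0.14). Same-numbered libraries were thus the most alike for numbers 1 and 3, but not for number 2. These values do not decide whether the numbers pair the libraries. With the replicate block the log2 fold changes were -0.56 for DPPA2, -0.42 for DPPA3 and -0.57 for DPPA4 (edgeR adjusted p = 0.382, 0.458 and 0.507). Their 95% intervals under the block lay below 0, at -0.89 to -0.23, -0.74 to -0.096 and -1.1 to -0.044 (edgeR unadjusted p = 0.0043, 0.0167 and 0.0368), where 9.25% of the 16056 genes had an unadjusted p below 0.05. No counted gene overlaps a member, so the intended sum with overlapping genes gave no value. Of 80 recomputed list medians 4 moved by more than the spread between libraries. The median of the pluripotency list was -0.06 without control replicate 1, and list medians changed sign in 3 alternatives for stroma and blood, 2 each for cleavage-stage genes, activators, pluripotency and oocyte, and 1 for cumulus. Among the DPPA genes counting error is largest for DPPA4, whose counts were 108 to 251 reads.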
